A study of Ipomoea batatas with 9 samples.

Results

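The TIFY contigs of the sweetpotato storage root are the 26 contigs, of 110110 in the deposited expression table, whose symbol starts with TIFY. The 26 carry 9 symbols. There were 9 contigs of TIFY10A, 4 of TIFY8, 3 of TIFY4B, 2 each of TIFY10B, TIFY11B, TIFY6A and TIFY6B, and 1 each of TIFY5A and TIFY9. A contig is one sequence of an assembled transcriptome and is named here by its symbol and identifier. Storage roots of the cultivar Xushu 18 of Ipomoea batatas were profiled by RNA sequencing in 3 groups: roots that were not stored (CK), roots stored at 14 °C (ATS) and roots stored at 4 °C (LTS), both stores at 85% relative humidity. There were 3 libraries per group, and every library came from 7 pooled roots. Means are over these 3 libraries (n = 3) with their SD, except where an SE is named. The series asked which root genes respond to low temperature, in a crop of warm climates that chilling injures. How long the sequenced roots had been stored is not stated in the labels. Time and temperature were thus not separated in the comparisons with roots not stored. For 4 °C against 14 °C, whether both stores lasted equally long is not stated either.

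TIFY proteins share a short conserved motif that gives the family its name, and most of those listed here are JAZ repressors of the jasmonate pathway. In Arabidopsis, a JAZ protein binds MYC and other transcription factors and holds their target genes off through the adaptor NINJA and co-repressors of the TOPLESS type. When jasmonoyl-isoleucine, the active hormone, binds the receptor COI1, the JAZ protein is tagged for destruction and the factors are released. Many JAZ genes are themselves targets of those factors, so that in leaves their transcripts are known to rise within a short time of wounding or hormone treatment. In Arabidopsis TIFY10A is JAZ1, TIFY10B is JAZ2, TIFY6B is JAZ3, TIFY6A is JAZ4, TIFY11B is JAZ6, TIFY5A is JAZ8 and TIFY9 is JAZ10. TIFY8 and TIFY4B are family members that are not classed as JAZ proteins. TIFY4B is PEAPOD2, which limits cell divisions in leaves. The name "repressor of jasmonate signalling" therefore covers 19 of the 26 contigs by their symbols, and 7 belong to TIFY8 or TIFY4B.

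Annotation other than the symbol was thin. The 26 contigs had empty fields for product, KOG and KEGG in the deposited table, and their gene ontology terms placed all 26 in the nucleus, 19 in regulation of transcription, 11 in jasmonic acid mediated signalling and 5 in the response to wounding. Contig lengths ran from 215 to 1749 bases with a median of 1250, and the number of assembled transcripts per contig from 1 to 5. Sweetpotato is polyploid, so contigs of one symbol may be copies of one gene or separate genes. Reads shared by nearly identical contigs could have gone to either.

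The libraries held 67643612 to 95421913 estimated counts. At that depth 3 counts, taken as the floor of detection, stood for 0.032 to 0.043 CPM, the usual scaling of counts to one common library size. The floor covers counting error only. Sporamin, the main storage protein of the root and the marker of the labelled tissue, had a sum over 9 contigs between 69600 and 109000 CPM in the roots not stored. The sum lay between 26000 and 34900 CPM at 14 °C, and between 23.5 and 232 CPM at 4 °C. All 9 sporamin contigs fell at 4 °C in both comparisons. Light-harvesting symbols, markers of green tissue, summed over 47 contigs to 583–843, 310–321 and 63.4–85.1 CPM in the same order. No contig of either list was at 0 counts in all libraries of a group. One contig in that list, Cab39, has a symbol used for a calcium-binding protein of no photosynthetic role. In bulk tissue, fewer cells of a type and less RNA per cell cannot be told apart, and the part of these marker changes in the TIFY results was not tested. For the TIFY contigs, replicate 2 stood highest and replicate 3 lowest both in roots not stored and at 4 °C, with summed levels of 549 and 302 CPM in the first and 484 and 339 CPM in the second. Results that rest on one of these libraries are given with and without it.

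Of the 26 contigs, 25 passed the filter on low counts and were tested. The 1 left out, TIFY4B comp65631_c1, is 215 bases long and had counts of 0, 0 and 0 in roots not stored, 0, 6 and 20 at 14 °C and 2, 0 and 3 at 4 °C. TIFY10A comp51643_c5 passed through the roots not stored, where it was high, and had to differ for that reason. TIFY10A comp52006_c1 had 10, 9 and 18 counts at 14 °C, too few to pass there. It passed through the other groups, where it was higher, so its difference from 14 °C carries a like limit.

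Storage at 14 °C and at 4 °C left the family at different levels. Summed over the 26 contigs, the level was 411 ± 126 CPM in roots not stored, 163 ± 9.77 at 14 °C and 415 ± 72.8 at 4 °C. The 3 libraries at 14 °C, at 156 to 174 CPM, lay below the other 6, at 302 to 549 CPM. Libraries not stored and libraries at 4 °C overlapped. Although these 2 groups had nearly the same sum, they drew it from different contigs. The 7 contigs called lower at 4 °C than in roots not stored made up 44.8 ± 10.6% of the sum in the latter and 7.92 ± 1.53% at 4 °C, and the 10 contigs called higher made up 40.1 ± 8.16% and 76.4 ± 5.48%. Those calls used the same values, so these shares are a description. At 14 °C the same 7 and 10 contigs held 10.2 ± 0.367% and 76.5 ± 0.885%.

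**Figure D1:**
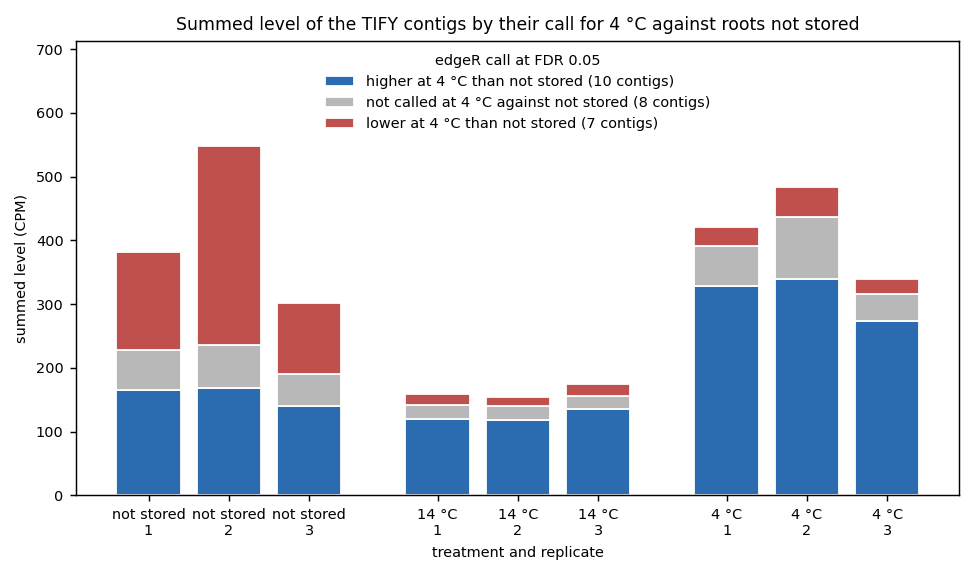
Bars give the summed level of the tested TIFY contigs in each library, in CPM, stacked by the call of each contig for 4 °C against roots not stored (edgeR, false discovery rate 0.05). The 10 contigs of the blue part summed to between 140 and 169 CPM in roots not stored, between 119 and 135 CPM at 14 °C and between 274 and 340 CPM at 4 °C, and the 7 of the red part to 112 to 312, 15.5 to 17.3 and 23.5 to 46.8 CPM.

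The first comparison set 4 °C against 14 °C. Most TIFY contigs were higher in the colder store. TIFY10B comp51097_c1 was 3.23-fold higher, TIFY10A comp86171_c1 3.27-fold, TIFY8 comp93795_c5 3.39-fold and TIFY9 3.82-fold, and a few contigs that were nearly silent at 14 °C were up to 36.4-fold higher. A single contig, TIFY4B comp48283_c1, fell. In edgeR's quasi-likelihood test with Benjamini-Hochberg adjustment at a false discovery rate of 0.05, 20 of 25 TIFY contigs rose, 1 fell and 4 did not pass. Over the 94802 contigs tested, 47.8% were called, 23.8% higher and 24% lower. These were 33% and 28.8% of the 54167 whose mean reached 1 CPM in a group, a level that all 25 tested TIFY contigs reached. The median log2 fold change was 1.71 for the TIFY contigs and -0.08 for all. For 21 TIFY contigs the 3 libraries at 4 °C lay above the 3 at 14 °C and for 1 below, against 29.5% and 30.8% of all contigs. Leaving out any single library kept the counts at 20 and 1. The 20 include TIFY10A comp52006_c1, which passed the filter through the groups where it was higher.

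Set against roots not stored, some TIFY contigs were higher at 4 °C and others lower. TIFY6A comp75840_c2 was 3.44-fold higher at 4 °C, TIFY10A comp86171_c1 2.39-fold and TIFY10B comp51097_c1 2.02-fold, while TIFY5A comp33795_c2 was 15.8-fold lower and TIFY10A comp37865_c4 57.2-fold lower. Rises were called for 10 of 25 contigs and falls for 7, and 8 did not pass. Of all contigs 52.5% were called, 26% higher and 26.6% lower, and of those that reached 1 CPM 34% were higher and 31.9% lower. The TIFY counts were thus near those of contigs of like level, and nothing is read from them about the family. Groups did not overlap for 10 TIFY contigs higher and 8 lower at 4 °C, against 30.1% and 30% of all contigs. The median log2 fold change was 0.5, against -0.02 over all contigs. Leaving out 1 library moved the number that rose between 7 and 12, and the number that fell between 6 and 9. A rise of at least 2-fold was found in 3 of the 10. The calls that gave way were those of TIFY9, TIFY6A comp83622_c1, TIFY8 comp44152_c5 and TIFY11B comp51669_c1, described below with their values.

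In the third comparison, 14 °C against roots not stored, most contigs were lower in the store. TIFY5A comp33795_c2 was 139-fold lower, TIFY10A comp94598_c1 92-fold, TIFY10A comp37865_c4 80.4-fold and TIFY10B comp37938_c1 19.4-fold. Falls were called for 17 of 25 contigs and a rise for 1, and 7 did not pass. Of all contigs 30.9% were called, 15.7% lower and 15.1% higher, and of those that reached 1 CPM 22.1% were lower and 19.8% higher. Groups did not overlap for 20 TIFY contigs lower and 2 higher at 14 °C, against 22% and 22.6% of all contigs. The median log2 fold change was -1.28 for the TIFY contigs and 0.02 for all, and the first was the same with comp51643_c5 set to its bound. The single rise, of TIFY6B comp53739_c1, was lost without replicate 2 of the roots not stored (adjusted p = 0.058, 0.00078 to 0.061 over all alternatives). Both comparisons with roots not stored share those 3 libraries. The falls counted in both include TIFY10A comp51643_c5, which passed the filter through the roots not stored. Those at 14 °C also include TIFY10A comp52006_c1, which passed it through the other groups, where it was higher. Both are also among the contigs without overlap at 14 °C, so these counts carry that limit.

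**Figure D2:**
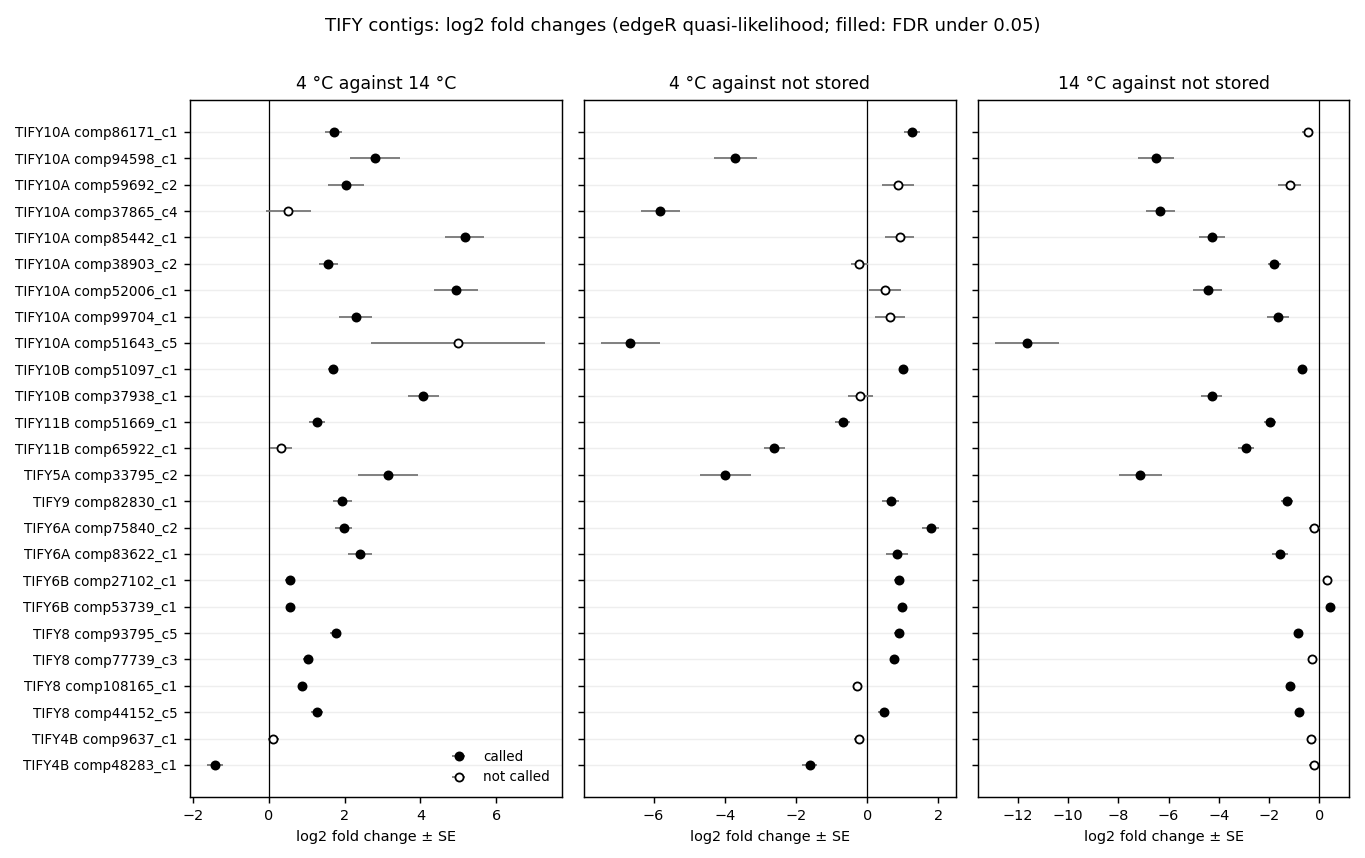
Points give the log2 fold change of each of the 25 tested TIFY contigs with its standard error in the 3 comparisons, filled where the adjusted p is under 0.05. The first panel holds 20 filled points above 0 and 1 below, the second 10 and 7, and the third 1 and 17.

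The counts of all contigs of one symbol were also added together before the test. This removes the effect of a split of reads between contigs of one symbol, but not of one between symbols. With these sums 8 of 9 symbols rose at 4 °C against 14 °C (23.8% of all rows were called higher). No symbol was called lower, and none was at an unadjusted p under 0.05. TIFY4B did not pass (adjusted p = 0.39, edgeR). Against roots not stored, 5 symbols rose and 3 fell at 4 °C (26% and 26.5% of all rows), and 1 rose and 7 fell at 14 °C (15.1% and 15.7%). The 9 TIFY10A contigs together had 131 ± 53.2 CPM in roots not stored, 29 ± 1.31 at 14 °C and 112 ± 47.5 at 4 °C.

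TIFY10A and TIFY10B, the symbols of JAZ1 and JAZ2, gave the most abundant contigs of the family in the cold. TIFY10B comp51097_c1, with the highest mean over the 9 libraries, had 42.5, 49.3 and 40.0 CPM in roots not stored, 27.0, 24.2 and 31.2 at 14 °C and 94.6, 89.3 and 81.9 at 4 °C. The 3 groups did not overlap, and the order was 4 °C, not stored, 14 °C. Its log2 fold change was 1.69 ± 0.13 (SE, adjusted p = 7.3e-07) for 4 °C against 14 °C, 1.01 ± 0.13 (SE, adjusted p = 3.9e-05) for 4 °C against not stored and -0.68 ± 0.13 (SE, adjusted p = 0.0022) for 14 °C against not stored. TIFY10A comp86171_c1 had 35.8, 33.9 and 24.0 CPM in roots not stored, 21.4, 22.3 and 24.8 at 14 °C and 76.1, 98.1 and 49.9 at 4 °C. Libraries at 4 °C lay above the other 6, which overlapped among themselves. It rose on the log2 scale by 1.71 ± 0.23 (SE, adjusted p = 8.2e-05) against 14 °C and of 1.26 ± 0.22 (SE, adjusted p = 0.00062) against roots not stored. For 14 °C against not stored it did not pass (-0.45 ± 0.22, SE, adjusted p = 0.15), and did without replicate 3 of the roots not stored (-0.68, adjusted p = 0.032; 0.032 to 0.46 over all alternatives).

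Several further TIFY10 contigs were as high at 4 °C as in roots not stored, within the spread of the libraries, and low at 14 °C. TIFY10B comp37938_c1 had 14.7, 16.4 and 8.88 CPM in roots not stored, 0.615, 0.782 and 0.66 at 14 °C and 10.4, 18.4 and 6.11 at 4 °C. TIFY10A comp85442_c1 had 4.85, 6.08 and 3.95, then 0.276, 0.257 and 0.234, then 7.43, 16.4 and 4.02 CPM in the same order of groups. TIFY10A comp52006_c1 had 2.73, 4.52 and 2.44, then 0.106, 0.101 and 0.248, then 4.01, 7.74 and 1.97 CPM. In these 3 contigs each library at 14 °C lay below every library of the other groups, and the other groups overlapped. Relative to 14 °C the level at 4 °C was 17-fold higher for comp37938_c1 (adjusted p = 1.7e-05, edgeR) and 36.4-fold for comp85442_c1 (adjusted p = 1.5e-05). It was 30.2-fold higher for comp52006_c1, given without a p, since that contig passed the filter through the groups where it was higher. Without replicate 2 at 4 °C, the highest library, the log2 fold changes of the last 2 went from 5.17 to 4.5 and from 4.95 to 4.35. None of the 3 passed the test for 4 °C against not stored (adjusted p = 0.67, 0.085 and 0.38), and comp85442_c1 did without replicate 3 at 4 °C (adjusted p = 0.0046) and in DESeq2 (0.047; 0.0046 to 0.62 over all alternatives).

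The 3 remaining TIFY10A contigs of that kind were less far apart. TIFY10A comp59692_c2 had 6.68, 8.44 and 6.73 CPM in roots not stored, 3.77, 2.95 and 2.96 at 14 °C and 11.1, 23.9 and 4.69 at 4 °C. It rose against 14 °C on the log2 scale by 2.03 ± 0.47 (SE, adjusted p = 0.0054), or 1.31 without replicate 2 at 4 °C. Its difference between 14 °C and not stored did not pass (adjusted p = 0.083), although those libraries did not overlap. It passed without replicate 3 or replicate 2 at 4 °C, at adjusted p = 0.0068 and 0.0079 (0.0014 to 0.19 over all alternatives). TIFY10A comp99704_c1 had 1.92, 1.97 and 1.88, then 0.604, 0.726 and 0.495, then 3.39, 4.58 and 1.01 CPM. It rose 4.92-fold at 4 °C against 14 °C (adjusted p = 0.0012) and fell 3.16-fold at 14 °C against not stored (adjusted p = 0.014). The latter call was lost without replicate 1 or replicate 3 at 14 °C (adjusted p = 0.053 and 0.052; 0.00046 to 0.053 over all alternatives). TIFY10A comp38903_c2 had 4.49, 3.98 and 2.84, then 1.38, 0.76 and 1.13, then 3.55, 3.18 and 2.99 CPM, 2.98-fold higher at 4 °C than at 14 °C (adjusted p = 0.00027). At 4 °C against not stored, comp59692_c2 and comp99704_c1 did not pass with all libraries (adjusted p = 0.14 and 0.21) and did without replicate 3 at 4 °C (0.0031 and 0.0038).

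Another 3 TIFY10A contigs were higher in roots not stored than in both stores. TIFY10A comp94598_c1 had 38.6, 86.0 and 26.7 CPM in roots not stored, 0.551, 0.749 and 0.344 at 14 °C and 3.72, 6.44 and 1.45 at 4 °C. The 3 groups did not overlap. It was 13-fold lower at 4 °C (log2 fold change -3.7 ± 0.61, SE, adjusted p = 0.00076) and 92-fold lower at 14 °C than in roots not stored (adjusted p = 0.00021), and 7.06-fold higher at 4 °C than at 14 °C (adjusted p = 0.0062). The log2 fold change of -3.7 became -3.11 without replicate 2 of the roots not stored and -4.32 without replicate 2 at 4 °C. TIFY10A comp37865_c4 had 18.5, 37.7 and 12.9, then 0.254, 0.302 and 0.303, then 0.156, 0.722 and 0.33 CPM. Both stores overlapped for this contig, and their difference did not pass (log2 fold change 0.51 ± 0.59, SE, adjusted p = 0.51). It was -0.18 without replicate 2 at 4 °C. Relative to roots not stored the log2 fold change was -5.81 ± 0.55 (SE, adjusted p = 1.2e-05) at 4 °C, or -6.56 without replicate 2 at 4 °C, and -6.33 ± 0.57 (SE, adjusted p = 3.9e-05) at 14 °C. TIFY10A comp51643_c5 had 5.37, 6.32 and 3.09 CPM in roots not stored and was not counted in any library at 14 °C. Against a floor of 3 counts per library it was thus at least 139-fold lower there. At 4 °C it had 11 counts, all in replicate 2, which is 0.137 CPM there, and none in the other libraries. No p is given, since the filter had already fixed a difference. The fitted log2 fold change of that comparison, which depends on the prior count for a contig near 0, was -6.65, or -11.68 without replicate 2 at 4 °C.

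**Figure D3:**
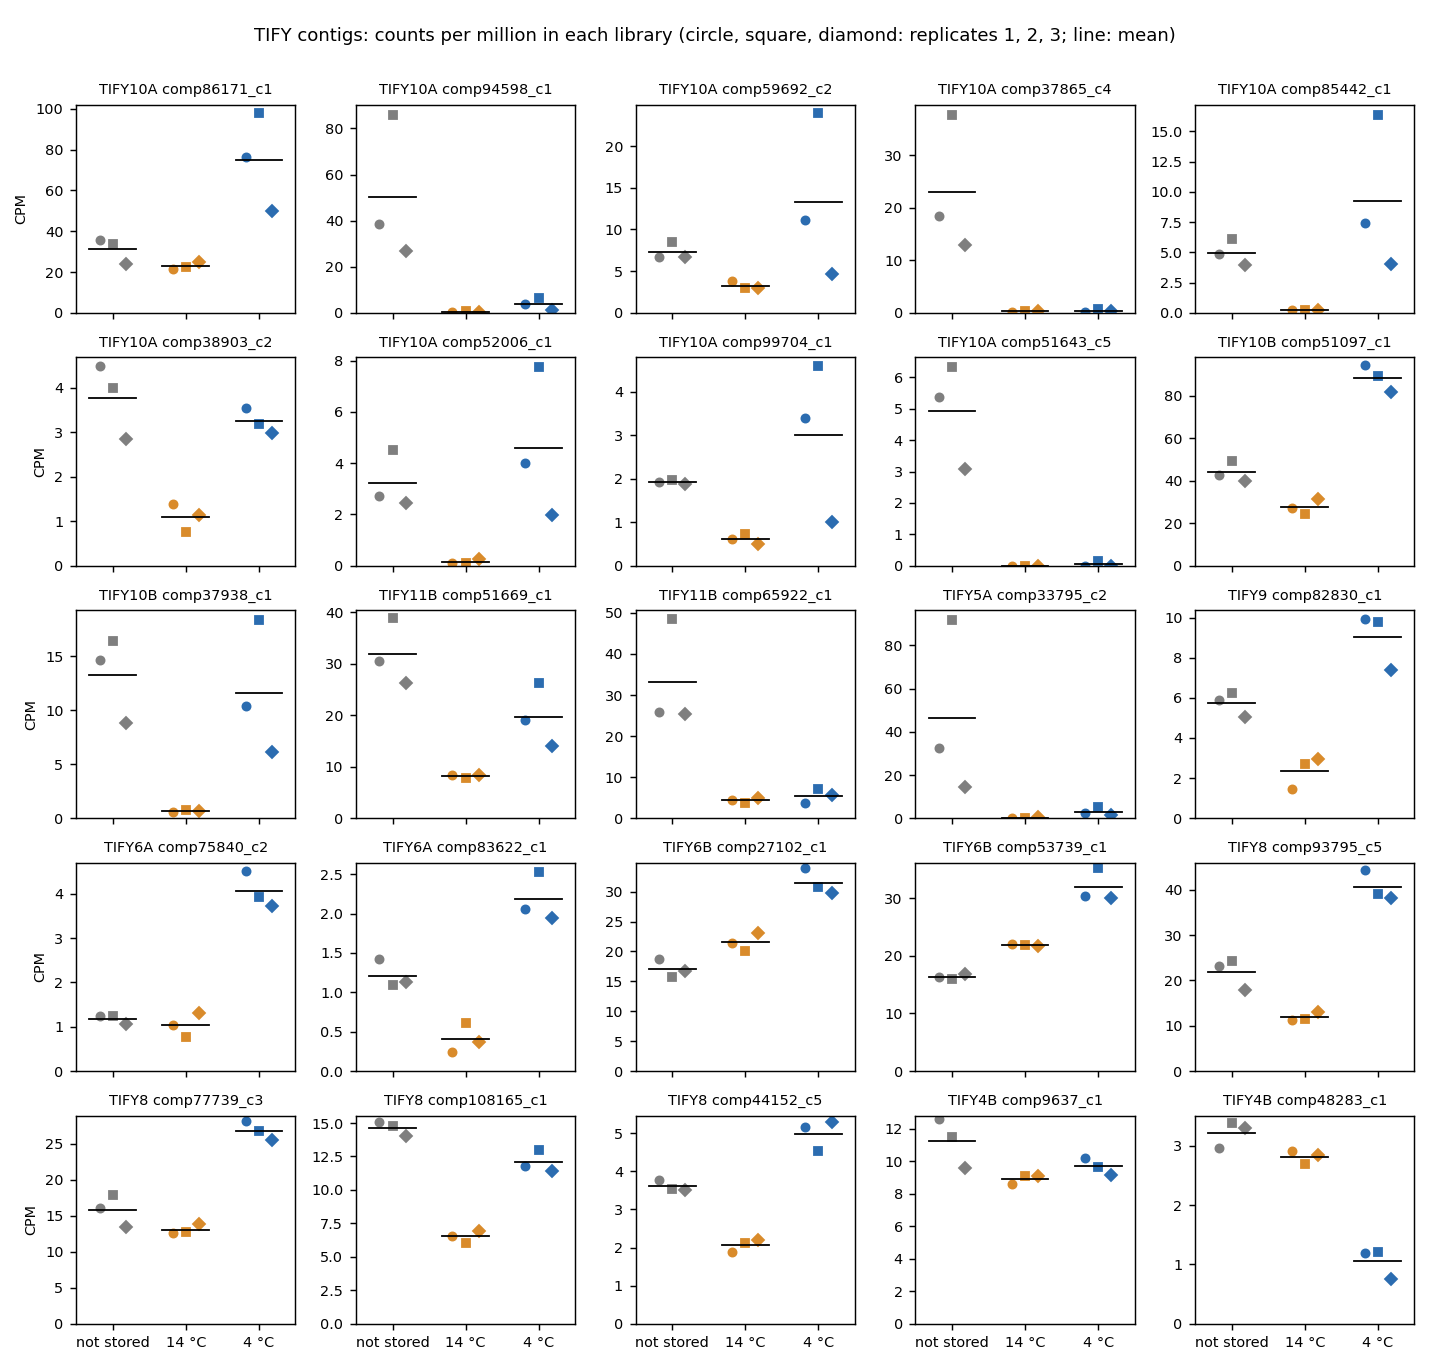
Each panel shows 1 of the 25 tested TIFY contigs on its own linear axis from 0, in CPM, with 3 libraries per group (circle, square and diamond for replicates 1, 2 and 3) and the group mean as a line. TIFY10B comp51097_c1 is at 81.9 to 94.6 CPM at 4 °C and 24.2 to 31.2 at 14 °C, and TIFY5A comp33795_c2 is at 14.5 to 91.7 CPM in roots not stored and at 0.254 to 5.01 CPM in the stores.

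TIFY11B, the symbol of JAZ6, was highest in roots not stored in both of its contigs. TIFY11B comp51669_c1 had 30.5, 38.8 and 26.3 CPM there, 8.41, 7.76 and 8.48 at 14 °C and 19.0, 26.2 and 14.0 at 4 °C. The groups did not overlap, although the highest library at 4 °C came close to the lowest not stored. It fell on the log2 scale by 1.96 ± 0.22 (SE, adjusted p = 5.6e-05) at 14 °C against not stored and stood 1.26 ± 0.21 (SE, adjusted p = 0.00041) higher at 4 °C than at 14 °C. Its fall at 4 °C against not stored (-0.69 ± 0.21, SE, adjusted p = 0.015) was lost without replicate 1 or 3 at 4 °C or replicate 2 of the roots not stored (adjusted p = 0.053, 0.059 and 0.05; 0.0023 to 0.059 over all alternatives). TIFY11B comp65922_c1 had 25.8, 48.4 and 25.4, then 4.49, 3.66 and 4.96, then 3.66, 7.12 and 5.55 CPM. Both stores were alike in range, and their difference did not pass (0.32 ± 0.29, SE, adjusted p = 0.4). Relative to roots not stored it was 6.1-fold lower at 4 °C (adjusted p = 2.9e-05) and 7.58-fold lower at 14 °C (adjusted p = 5.9e-05).

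TIFY5A, the symbol of JAZ8, had the widest spread between roots not stored. In Arabidopsis JAZ8 lacks the usual degron for COI1 and so resists destruction in the presence of the hormone. TIFY5A comp33795_c2 had 32.6, 91.7 and 14.5 CPM in roots not stored, 0.254, 0.358 and 0.385 at 14 °C and 2.38, 5.01 and 1.39 at 4 °C. The 3 groups did not overlap, although the roots not stored differed 6.32-fold among themselves. Its log2 fold change was -7.13 ± 0.86 (SE, adjusted p = 0.00037) for 14 °C and -3.98 ± 0.71 (SE, adjusted p = 0.0013) for 4 °C, both against roots not stored. Without replicate 2 of the roots not stored these were -6.2 and -3.05, and without replicate 2 at 4 °C the second was -4.65. For 4 °C against 14 °C it was 3.15 ± 0.79 (SE, adjusted p = 0.0097), or 2.53 without replicate 2 at 4 °C, and limma-voom did not call it (adjusted p = 0.065; 1e-04 to 0.065 over all alternatives).

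TIFY9, the symbol of JAZ10, followed the order of TIFY10B comp51097_c1. TIFY9 comp82830_c1 had 5.88, 6.26 and 5.07 CPM in roots not stored, 1.45, 2.71 and 2.94 at 14 °C and 9.94, 9.8 and 7.39 at 4 °C, with no overlap between groups. Its log2 fold change was 1.94 ± 0.25 (SE, adjusted p = 4.3e-05) for 4 °C against 14 °C and -1.28 ± 0.24 (SE, adjusted p = 0.0021) for 14 °C against not stored. The rise at 4 °C against not stored, 0.66 ± 0.24 (SE, adjusted p = 0.034), was lost without any of 5 libraries: each of the 3 not stored and replicates 1 and 2 at 4 °C (adjusted p = 0.059 to 0.12). It was also lost with the replicate number as a block (adjusted p = 0.051; 0.0076 to 0.13 over all alternatives).

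TIFY6A and TIFY6B, the symbols of JAZ4 and JAZ3, were tested in 2 contigs each, of which those of TIFY6B varied little between libraries. TIFY6B comp53739_c1 had 16.3, 16.0 and 16.8 CPM in roots not stored, 22.1, 21.9 and 21.8 at 14 °C and 30.5, 35.2 and 30.1 at 4 °C. TIFY6B comp27102_c1 had 18.8, 15.8 and 16.8, then 21.4, 20.1 and 23.1, then 33.9, 30.8 and 29.8 CPM. Both contigs stepped up from not stored to 14 °C to 4 °C without overlap. Their log2 fold changes were 0.55 ± 0.11 (SE, adjusted p = 0.0014) and 0.55 ± 0.12 (SE, adjusted p = 0.0023) for 4 °C against 14 °C, and 0.97 ± 0.11 (SE, adjusted p = 1.5e-05) and 0.88 ± 0.12 (SE, adjusted p = 5.9e-05) for 4 °C against not stored. For 14 °C against not stored comp53739_c1 passed (0.42 ± 0.11, SE, adjusted p = 0.013) and comp27102_c1 did not (0.33 ± 0.12, SE, adjusted p = 0.051). That of comp27102_c1 passed under library totals alone and a stricter filter (0.0029 and 0.025; 0.0029 to 0.26 over all alternatives). Among the tested TIFY contigs these were the ones with a log2 fold change above 0 for 14 °C against not stored. With library totals alone as the scaling, TIFY6A comp75840_c2 and TIFY4B comp48283_c1 also came out above 0, each at 0.05, without a call.

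TIFY6A was low in roots not stored, and at 14 °C its libraries differed 1.72-fold in comp75840_c2 and 2.52-fold in comp83622_c1. TIFY6A comp75840_c2 had 1.25, 1.24 and 1.06 CPM there, 1.04, 0.76 and 1.31 at 14 °C and 4.51, 3.93 and 3.73 at 4 °C. Libraries at 4 °C lay apart from the other 6, which overlapped. Its rise on the log2 scale was 1.97 ± 0.23 (SE, adjusted p = 2.2e-05) against 14 °C and 1.78 ± 0.23 (SE, adjusted p = 3.9e-05) against roots not stored. TIFY6A comp83622_c1 had 1.42, 1.09 and 1.13, then 0.244, 0.614 and 0.371, then 2.06, 2.53 and 1.95 CPM, with no overlap between groups. It was 5.31-fold higher at 4 °C than at 14 °C (adjusted p = 6.6e-05) and 2.97-fold lower at 14 °C than not stored (adjusted p = 0.0033). Its rise at 4 °C against not stored (0.84 ± 0.3, SE, adjusted p = 0.033) was lost without replicate 2 or 3 of the roots not stored or replicate 1 or 2 at 4 °C (adjusted p = 0.058 to 0.12), and with the replicate number as a block (0.053; 0.015 to 0.22 over all alternatives).

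TIFY8, which in Arabidopsis acts as a repressor without being a JAZ protein, was higher at 4 °C than at 14 °C in its 4 contigs. TIFY8 comp93795_c5 had 23.1, 24.2 and 18.0 CPM in roots not stored, 11.2, 11.6 and 13.1 at 14 °C and 44.3, 39.1 and 38.2 at 4 °C. TIFY8 comp77739_c3 had 16.1, 17.9 and 13.4, then 12.6, 12.8 and 13.8, then 28.1, 26.8 and 25.5 CPM. The first had no overlap between groups, and in the second the libraries not stored and at 14 °C overlapped. Their log2 fold changes were 1.76 ± 0.14 (SE, adjusted p = 8.7e-07) and 1.03 ± 0.13 (SE, adjusted p = 3.9e-05) for 4 °C against 14 °C, and 0.9 ± 0.14 (SE, adjusted p = 0.00016) and 0.76 ± 0.13 (SE, adjusted p = 0.00035) against roots not stored. For 14 °C against not stored comp77739_c3 passed without replicate 3 of the roots not stored alone (adjusted p = 0.014).

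The other TIFY8 contigs differed in where the roots not stored lay. TIFY8 comp108165_c1 had 15.1, 14.8 and 14.0 CPM in roots not stored, 6.56, 6.07 and 6.96 at 14 °C and 11.8, 13.0 and 11.4 at 4 °C. It fell 2.24-fold at 14 °C against not stored (adjusted p = 4.2e-05). Its lower level at 4 °C than in roots not stored had no overlap but did not pass (-0.28 ± 0.12, SE, adjusted p = 0.073), and passed without replicate 3 of the roots not stored (adjusted p = 0.038) and under the stricter filter (0.019; 0.019 to 0.22 over all alternatives). The short contig TIFY8 comp44152_c5, of 246 bases, had 3.78, 3.54 and 3.52, then 1.89, 2.11 and 2.2, then 5.15, 4.53 and 5.29 CPM. It was 2.41-fold higher at 4 °C than at 14 °C (adjusted p = 4.4e-05). Its rise at 4 °C against not stored (0.46 ± 0.16, SE, adjusted p = 0.027) was lost without any of 5 libraries, each of the 3 not stored and replicates 1 and 3 at 4 °C (adjusted p = 0.057 to 0.095), with the replicate number as a block (0.057) and with those groups alone in the fit (0.065; 0.01 to 0.095 over all alternatives).

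TIFY4B, the symbol of PEAPOD2, gave the one TIFY contig called lower at 4 °C than at 14 °C. TIFY4B comp48283_c1 had 2.97, 3.38 and 3.31 CPM in roots not stored, 2.92, 2.69 and 2.85 at 14 °C and 1.19, 1.21 and 0.761 at 4 °C. It fell on the log2 scale by 1.42 ± 0.21 (SE, adjusted p = 0.00017) against 14 °C and of 1.61 ± 0.21 (SE, adjusted p = 5.2e-05) against roots not stored. TIFY4B comp9637_c1, the more abundant contig, had 12.6, 11.5 and 9.55, then 8.62, 9.08 and 9.08, then 10.2, 9.67 and 9.15 CPM. It passed no comparison (adjusted p = 0.51, 0.21 and 0.086 in the order above), and its fold changes between means ran from 1.08 to 1.26. It passed without replicate 3 of the roots not stored, the lowest of them, against both stores (adjusted p = 0.033 for 4 °C and 0.012 for 14 °C).

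The spread between libraries of one treatment was itself uneven over the family. At 4 °C replicate 2 was the highest of the 3 libraries for 16 of the 25 contigs and replicate 3 the lowest for 21, against 37% and 41.5% of the 54167 contigs with at least 1 CPM in a group. In roots not stored replicate 2 was again the highest for 16 and replicate 3 the lowest for 20, against 29.7% and 41.5%. At 14 °C the highest library was replicate 3 for 14 contigs, against 43.4%. The coefficient of variation at 4 °C had a median of 24% over the TIFY contigs and 13.6% over all contigs. At 14 °C the medians were 11.1% and 14.1%, and in roots not stored 14.8% and 18.5%. Between the highest and lowest library at 4 °C, TIFY10A comp59692_c2 differed 5.1-fold, TIFY10A comp99704_c1 4.51-fold and TIFY10A comp85442_c1 4.09-fold, whereas TIFY10B comp51097_c1 differed 1.15-fold and TIFY8 comp77739_c3 1.1-fold. Sporamin was also lowest in replicate 3 at 4 °C, at 23.5 CPM against 213 and 232, and in replicate 3 of the roots not stored. Its part in the spread of the TIFY contigs was not tested.

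**Figure D4:**
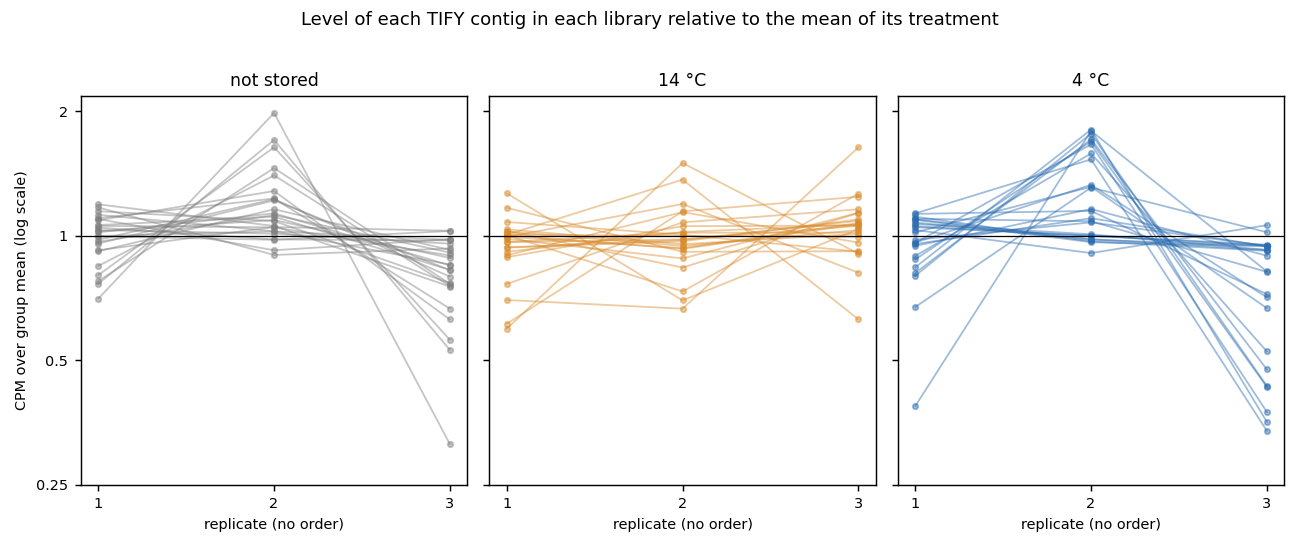
Lines join the 3 libraries of one treatment for each tested TIFY contig, as CPM over the mean of that treatment on a log axis; TIFY10A comp51643_c5 is not drawn at 14 °C and 4 °C, where it has libraries at 0. Replicate 2 is the highest library for 16 of 25 contigs both in roots not stored and at 4 °C.

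Levels of different contigs were compared per length, on the authors' TPM scale. In roots not stored the order of the means began with TIFY5A comp33795_c2 at 47.8 ± 41.0 TPM, TIFY10A comp94598_c1 at 43.7 ± 25.7, TIFY10B comp51097_c1 at 28.9 ± 2.9, TIFY11B comp51669_c1 at 24.8 ± 4.17 and TIFY10A comp86171_c1 at 21.0 ± 2.27. Neighbours in that order overlapped between libraries. At 14 °C TIFY10B comp51097_c1 led with 24.1 ± 2.09 TPM, followed by TIFY10A comp86171_c1 at 20.8 ± 0.709, TIFY8 comp77739_c3 at 18.0 ± 0.199 and TIFY6B comp27102_c1 at 16.0 ± 0.549. These 4 did not overlap between neighbours. At 4 °C the same contigs led, TIFY10B comp51097_c1 with 71.1 ± 3.88 TPM and TIFY10A comp86171_c1 with 61.4 ± 16.2, whose libraries overlapped. TIFY8 comp77739_c3 followed at 33.6 ± 1.76 and TIFY8 comp44152_c5 at 30.9 ± 4.35, also overlapping. TIFY5A comp33795_c2 ranked 1 of 26 in roots not stored, 21 at 14 °C and 20 at 4 °C. Its share of the summed TPM went from 12.9 ± 7.59% to 0.277 ± 0.0384% and 0.974 ± 0.481%.

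Contigs of one symbol followed each other closely in some pairs and not in others. Over the 9 libraries, the Pearson correlation of log2 CPM (0.5 added) was 0.956 between both TIFY6B contigs, 0.816 between both TIFY11B contigs, 0.788 between both TIFY6A contigs, 0.74 between both TIFY10B contigs and 0.219 between the tested TIFY4B contigs. It ran from 0.499 to 0.97 over the 6 pairs of TIFY8 and from -0.184 to 0.996 over the 36 pairs of TIFY10A. These libraries fall into 3 treatments, so the values describe how the treatment means line up and carry no p.

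The contigs outside the family most like a TIFY contig were sought among 17934 that had a symbol and reached a mean of 5 CPM in a group. For TIFY10B comp51097_c1 the 5 highest correlations over the 9 libraries, 0.994 to 0.996, were with PATL3 comp83653_c1, the alpha-amylase AMY1.1 comp105704_c1, LBD40 comp71622_c1, OEP24 comp86369_c1 and PAP1 comp90665_c2. AMY1.1 comp105704_c1 had 8.41 ± 1.48 CPM in roots not stored, 4.15 ± 0.535 at 14 °C and 26.5 ± 2.87 at 4 °C. For TIFY10A comp85442_c1, with the largest rise at 4 °C against 14 °C, they were GAPC comp73812_c1, ZMAT2 comp88993_c1, MES10 comp88915_c1, SCL15 comp91390_c1 and RPL14B comp55872_c1, at 0.983 to 0.988. MES10 comp88915_c1, whose symbol names a methyl esterase, had 36.4 ± 8.97, 9.56 ± 0.434 and 70.7 ± 27.8 CPM in the order not stored, 14 °C and 4 °C. For TIFY4B comp48283_c1, the contig that fell, they were the beta-amylase BMY1 comp34415_c1 and 4 sporamin contigs of symbol GSPO-B1, at 0.99 to 0.996. BMY1 had 8920 ± 813, 3500 ± 269 and 16.1 ± 11.6 CPM. Groups that differ strongly give high correlations with many contigs, so this is a description.

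The rest of the jasmonate pathway was described from lists of symbols, without a test of any list as a whole. Of all tested contigs, 23.8% rose and 24% fell at 4 °C against 14 °C. The shares were 26% and 26.6% at 4 °C against not stored, and 15.1% and 15.7% at 14 °C against not stored. Of 6 contigs of COI1, the receptor, 2 rose and 0 fell at 4 °C against 14 °C (edgeR), 2 rose and 1 fell at 4 °C against not stored, and 1 rose and 1 fell at 14 °C against not stored. The most abundant, comp102822_c1, had 189 ± 4.63 CPM in roots not stored, 176 ± 11.1 at 14 °C and 161 ± 5.44 at 4 °C and passed no comparison (adjusted p = 0.31, 0.069 and 0.47). The rises were those of comp77878_c1 (log2 fold change 0.35 ± 0.1, SE) and comp7920_c1 (0.39 ± 0.1, SE). COI1 comp89776_c1 rose in both stores against roots not stored, from 7.53 ± 3.86 to 22.3 ± 5.82 CPM at 14 °C and 28.6 ± 3.29 at 4 °C (adjusted p = 0.0052 and 0.00067). With the SKP1, ASK, cullin and RBX1 symbols of the ubiquitin ligase that holds COI1, 27 of 67 tested contigs rose and 7 fell at 4 °C against 14 °C, 27 rose and 12 fell at 4 °C against not stored, and 12 rose and 10 fell at 14 °C against not stored. Some ASK symbols in that list carry the description of another kinase family, glycogen synthase kinase 3. The most abundant contig of that kind, ASK5 comp15597_c1, had 234 ± 6.96 CPM in roots not stored, 356 ± 5.28 at 14 °C and 648 ± 24.8 at 4 °C. ASK1 comp63535_c1, with no description, had 252 ± 17.1, 219 ± 14.2 and 232 ± 13.4 CPM in the same order and passed no comparison (adjusted p = 0.55, 0.36 and 0.17, edgeR). SKP1A comp98403_c1, an adaptor of the ligase, had 185 ± 33.2 CPM in roots not stored, 150 ± 19.2 at 14 °C and 313 ± 28.8 at 4 °C.

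Among 12 tested contigs of transcription factors that JAZ proteins bind in Arabidopsis, 7 rose and 2 fell at 4 °C against 14 °C, 7 rose and 4 fell at 4 °C against not stored, and 2 rose and 3 fell at 14 °C against not stored. The tested contigs were 4 of BHLH3, 4 of MYB21, 2 of GL3, 1 of BHLH13 and 1 of BHLH14. The list held no MYC symbol, so its counts say nothing on MYC factors. Of the BHLH3 contigs 3 rose and 1 fell at 4 °C in either comparison, and BHLH14 fell in both. Both GL3 contigs, of a factor of hair formation and pigment synthesis, rose in all 3 comparisons. GL3 comp107958_c6 had 16.9 ± 1.31 CPM in roots not stored, 25 ± 2.95 at 14 °C and 97.3 ± 17.0 at 4 °C, and the libraries of GL3 comp33374_c3 lay at 8.92 to 10.3, 17.9 to 18.5 and 66.9 to 86 CPM. BHLH13 comp52937_c1, of a family of factors that oppose MYC2 in Arabidopsis, had 139 ± 39.4, 49.6 ± 3.9 and 62.4 ± 8.02 CPM and fell in both stores (adjusted p = 1e-04 at 14 °C and 0.00017 at 4 °C). Co-repressor symbols gave 12 contigs higher and 72 lower of 174 tested at 4 °C against 14 °C, 33 and 57 at 4 °C against not stored, and 26 and 9 at 14 °C against not stored. Of these 174, 97 carry the symbol TPR3, and the most abundant of them, comp103343_c7, is described as actin in the table. TPL itself, with 16 tested contigs, had 2 higher and 5 lower at 4 °C against 14 °C. TPR4 comp2972_c3, the most abundant contig of the list, had 159 ± 41.1 CPM in roots not stored, 310 ± 55.3 at 14 °C and 328 ± 32.1 at 4 °C. TPR3 comp103343_c7 had 102 ± 24.6, 157 ± 14.3 and 249 ± 16.6 CPM. TPL comp31086_c1 had 82.8 ± 19.3 CPM in roots not stored, 161 ± 21.0 at 14 °C and 152 ± 14.3 at 4 °C.

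Of 43 tested contigs of jasmonate synthesis, 16 rose and 11 fell at 4 °C against 14 °C, 14 rose and 14 fell at 4 °C against not stored, and 4 rose and 10 fell at 14 °C against not stored. Both OPR3 contigs, of the reductase that leads to jasmonic acid, rose at 4 °C against 14 °C, and 3 of 4 LOX6 contigs fell. Other symbols of the list went both ways in that comparison. Of 3 CYP74A contigs 0 rose and 2 fell, and of 4 CYP74A2 contigs 3 rose and 1 fell. All contigs of OPR1, OPR2, OPR11 and JMT rose, and these are part of the rises counted above. The single contigs of LOX3 and LOX4 fell, and of 3 tested LOX3.1 contigs 0 rose and 2 fell. The counts thus mix symbols that differ in direction and give no direction for the list as a whole. LOX1.5 comp90607_c1, a lipoxygenase, had 598 ± 93.7 CPM in roots not stored, 154 ± 7.22 at 14 °C and 631 ± 51.2 at 4 °C. In Arabidopsis lipoxygenases of the LOX1 type are not those of jasmonate synthesis. LOX3.1 comp10477_c1 had 44.6 ± 5.99, 68.9 ± 3.9 and 81.3 ± 8.42 CPM in the same order. Its difference between 4 °C and 14 °C did not pass (adjusted p = 0.15, edgeR). At 4 °C against not stored 1 LOX3.1 contig rose and 2 fell. ACX1.2 comp66008_c1, an acyl-CoA oxidase, had 145 ± 14.3, 168 ± 13.6 and 235 ± 9.27 CPM. Amidohydrolases of the ILL symbols, some of which split jasmonoyl-isoleucine, rose in 12 of 16 contigs and fell in 1 at 4 °C, both against 14 °C and against not stored. At 14 °C against not stored 4 rose and 2 fell. ILL4 comp93867_c1 had 27.5 ± 2.26, 30.9 ± 2.54 and 103 ± 4.59 CPM in the order not stored, 14 °C and 4 °C. ILL7 comp47791_c1 had 39.1 ± 7.92, 23.3 ± 2.76 and 44.4 ± 4.69 CPM, and ILL1 comp45842_c1 17.8 ± 2.01, 19.2 ± 1.11 and 39 ± 2.31 CPM.

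Symbols listed as wound and jasmonate response genes gave 21 of 33 higher and 3 lower at 4 °C against 14 °C, 21 and 4 at 4 °C against not stored, and 5 and 9 at 14 °C against not stored. The list is a weak one, since 21 of the 33 are protoporphyrinogen oxidases, enzymes of haem and chlorophyll synthesis that its PPO pattern caught. Of the 8 ERF1B contigs, of an ethylene and jasmonate response factor, 6 rose and 1 fell at 4 °C in either comparison. The 3 most abundant contigs of the list were of HSPRO symbols, related to a nematode resistance protein. HSPRO2 comp553_c5 had 235 ± 32.6 CPM in roots not stored, 78.7 ± 5.47 at 14 °C and 61.8 ± 4.28 at 4 °C. HSPRO1 comp62099_c8 had 179 ± 33.8, 54.2 ± 5.05 and 39.5 ± 2.46 CPM. Both fell at 4 °C against 14 °C (adjusted p = 0.035 and 0.018, edgeR) and against roots not stored (1.4e-07 and 1.5e-07). HSPRO2 comp48664_c1 instead had 124 ± 65.9 CPM in roots not stored, 3.43 ± 0.657 at 14 °C and 70.5 ± 16.6 at 4 °C. Of 16 tested GATA factors with a TIFY domain, 3 rose and 1 fell at 4 °C against 14 °C, 3 and 4 at 4 °C against not stored, and 1 and 4 at 14 °C against not stored. GATA28 comp18003_c2 had 22.2 ± 1.48 CPM in roots not stored, 27.1 ± 2.96 at 14 °C and 40.7 ± 5.13 at 4 °C. GATA24 comp10744_c1 had 29.5 ± 3.01, 28.7 ± 0.588 and 28.2 ± 2.18 CPM, and GATA24 comp38412_c1 19.9 ± 2.02, 18.9 ± 2.78 and 19.1 ± 3.91 CPM. The table describes all 3 as pseudo-response regulator 1.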

How the data were processed

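Estimated counts, TPM and RPKM per contig were deposited by the authors in 1 table, per the file headers. Tools in the submitters' processing notes, given there without a role, are StringTie 1.3.4d, HISAT2 2.0.4, cutadapt 1.9, edgeR and DESeq2. Which tool counted, whether strand was used and how the contigs were assembled are points not given in the sources used here. Deposited TPM values, scaled per length, served to compare levels between contigs, and the deposited RPKM values were not used.

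The deposited estimated counts, rounded, were fitted in edgeR 4.0.16 (R 4.3.3) with TMM scaling, the default low-count filter and a robust quasi-likelihood fit over all 9 libraries, 1 term per group, and p-values adjusted by Benjamini-Hochberg over the 94802 contigs that passed. CPM are counts scaled to the TMM-corrected library size. Standard errors are the log2 fold change over the square root of the F statistic. Alternatives used limma 3.58.1 and DESeq2 1.42.0, other scalings and filters, 2 groups at a time, a replicate block and each library left out. The script was tested on simulated counts. Tables and figures were made in Python 3.11.15 with pandas 2.3.3 and matplotlib 3.10.9.

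All TIFY contigs were named. Beyond them, the rule named the 3 most abundant contigs of each pathway list and the 5 contigs most like 3 anchors, which were the TIFY contigs with the highest mean, the largest rise and the largest fall at 4 °C against 14 °C. COI1 contigs, single symbols within the lists and the contrasts between libraries were added after values were seen. The members and lists were chosen with earlier results of these data known. Replicates are pools of 7 roots, so p-values measure the spread between pools. The sources used here mention no molecular barcodes, so counts are of reads. The label's extraction text names retinas although every sample is labelled as root, and the sporamin levels above bear on that label.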

Additional observations from a re-analysis of the deposited data

Results flagged for a closer look

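Relative to roots not stored, 5 TIFY contigs rose at 4 °C and fell at 14 °C. The share of all contigs with that pair of calls was not computed, so nothing is read from this number. Both effects use the same roots not stored, so their difference equals the comparison of 4 °C with 14 °C, and choosing contigs with opposite calls already fixes that difference. Its values are therefore a description. The log2 fold change of 4 °C against 14 °C was 1.69 for TIFY10B comp51097_c1, 1.76 for TIFY8 comp93795_c5, 1.94 for TIFY9 comp82830_c1, 2.41 for TIFY6A comp83622_c1 and 1.27 for TIFY8 comp44152_c5. The rises of the last 3 against roots not stored were also those lost when single libraries were left out.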

How the results depend on the processing

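Of 1499 fold changes of single TIFY contigs under other settings, 1430 kept their direction and their side of the threshold. Calls were lost in 44 and gained in 18, and 7 changed sign. The setting of at least 2-fold reuses the main fold changes. There 60 counted as kept and 15 as lost calls, and no sign could change. No sign change concerned a called value. Without replicate 2 at 4 °C, TIFY10A comp37865_c4 went to -0.18 for 4 °C against 14 °C, as it did without replicate 2 of both groups, and TIFY10A comp52006_c1 to -0.14 for 4 °C against not stored; leaving out single libraries they ranged from -0.18 to 0.89 and from -0.14 to 0.88. Without replicate 3 at 4 °C, TIFY10B comp37938_c1 went to 0.12 for 4 °C against not stored (-0.72 to 0.12). With library totals alone, TIFY4B comp9637_c1 went to -0.03 for 4 °C against 14 °C, and TIFY4B comp48283_c1 and TIFY6A comp75840_c2 to 0.05 for 14 °C against not stored. That scaling moved the median of all contigs from -0.08 to -0.23, from -0.02 to 0.08 and from 0.02 to 0.27 in the 3 comparisons in the order of the report. The cause of these changes was not tested.

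Asking for at least 2-fold left 18104 of 29250 contigs called for 14 °C against not stored, 0 of 1 TIFY contig higher there and 3 of 10 TIFY contigs higher at 4 °C against not stored, since fewer contigs can pass. The single TIFY rise at 14 °C against not stored became 2 with library totals alone and with the stricter filter, and 0 without replicate 2 of the roots not stored or without replicate 2 of both that group and 4 °C, a setting chosen after seeing the data. The single TIFY symbol higher there was also 0 in these last settings. Leaving out 1 library at a time, contigs called numbered 38651 to 48265, 44097 to 50443 and 20648 to 32652 in the 3 comparisons. TIFY contigs higher and lower numbered 20 to 20 and 1 to 1, 7 to 12 and 6 to 9, and 0 to 1 and 16 to 20. TIFY symbols numbered 8 to 8 and 0 to 0, 4 to 5 and 2 to 3, and 0 to 1 and 7 to 8.

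Replicate numbers are shared between groups. The sample titles do not say whether they pair the libraries, and the main fit used no pairing. Deviations of same-numbered libraries correlated at 0.237, 0.091 and 0.297 between 4 °C and not stored. There each library at 4 °C correlated best with its own number, whereas replicate 2 not stored was as close to replicate 1 at 4 °C (0.093). The correlations were -0.258, -0.047 and -0.252 between 4 °C and 14 °C, and -0.344, -0.031 and -0.501 between 14 °C and not stored. With the replicate block 41902, 46420 and 24561 contigs were called, and 20, 7 and 1 TIFY contigs were higher and 1, 7 and 17 lower.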
